A study of Capra hircus with 4 samples.

Results

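The 38 genes described here encode the machinery of the dividing cell: 14 copy the DNA or make its building blocks, and 24 drive or carry out mitosis. They were chosen by symbol, as the rows of the deposited gene list named in a fixed set of cell cycle genes, with no measured value in the rule. All 38 were found among 27137 genes, and each had UMIs in every library. A UMI (unique molecular identifier) marks 1 captured RNA molecule.

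The study sequenced single cells of dissociated pancreas from Liuyang black goats, 2 of them 10 days old, before rumination, and 2 of them 6 months old, after its onset. All 4 were females from twin births, per the labels, and every sample passed through enzymatic digestion, red blood cell lysis and removal of dead cells before 10x Genomics 3' version 3 capture, so cells lost in these steps are not represented. The deposited matrix numbers its libraries 1 to 4, and the labels do not say which goat a number stands for. Every value below is therefore given by library number, no age is compared, and no test treats the unmapped libraries as replicates.

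A cell enters division by committing in G1, when cyclin-dependent kinases release E2F factors from the retinoblastoma proteins. E2F then switches on the replication genes for S phase, and the mitotic genes follow in G2 and M, so their transcripts mark a short window of the cycle. Several replication proteins, PCNA among them, also serve DNA repair. In the pancreas, acinar cells secrete digestive enzymes, endocrine cells secrete hormones, and both types are known to divide more in early life than later.

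The 4 libraries held 2842, 3323, 3998 and 3084 called cells, with median depths of 6188, 8932, 7964 and 8185 UMIs per cell. Cells were clustered without the members and a fixed list of other cell cycle genes, and named from marker lists. "X-like" marks such a name. The named classes were acinar-like (PNLIP, CPB1, CEL), ductal-like (KRT19, CFTR, SOX9), endocrine-like (CHGA, INS, GCG), stellate-like (COL1A1, DCN, PDGFRA), endothelial-like (PECAM1, CDH5, VWF), immune-like (PTPRC, CORO1A) and mesothelial-like (MSLN). Different clusters made up a class in different libraries. Of the acinar-like cells, 372 of 423 in library 1 and 64 of 72 in library 4 lay in a cluster led by PNLIP and CELA1, 1036 of 1260 in library 2 lay in a cluster led by AQP8 and AMBP, and 531 of 807 in library 3 lay in a cluster led by PNLIPRP2 and DMGDH. A cluster mostly of 1 library may reflect that library rather than a type of cell. Of 13230 barcode sequences, 17 occurred in more than 1 library, on 34 cells, of which 3 had 3 or more mitosis members.

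The members were most abundant in library 3. Their summed level was 208.6 CPM (counts scaled to 1000000 UMIs of the cells) in library 1, 372.1 CPM in library 2, 1205 CPM in library 3 and 242.8 CPM in library 4. Barcodes of 10 to 100 UMIs, which carry mostly RNA free in the suspension, held them at 102.9, 395.4, 845.8 and 106.7 CPM in the same order. Library 3 was thus the highest in both, and free RNA alone can give single UMIs of a member. For that reason the cells were read by how many different members they held.

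The count of members per cell had a long upper tail in every library. No member at all was detected in 1075 cells of library 1, 857 of library 2, 773 of library 3 and 1071 of library 4. At the other end, 22, 173, 600 and 23 cells held at least 10 different members, and the highest count in any cell was 37 of 38. Cells with 3 or more members made up 10.0% of library 1 (285 cells, exact binomial 95% interval 8.95 to 11.2), 26.4% of library 2 (876 cells, 24.9 to 27.9), 37.7% of library 3 (1509 cells, 36.2 to 39.3) and 12.9% of library 4 (399 cells, 11.8 to 14.2). These and all later intervals cover counting error only.

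**Figure D1:**
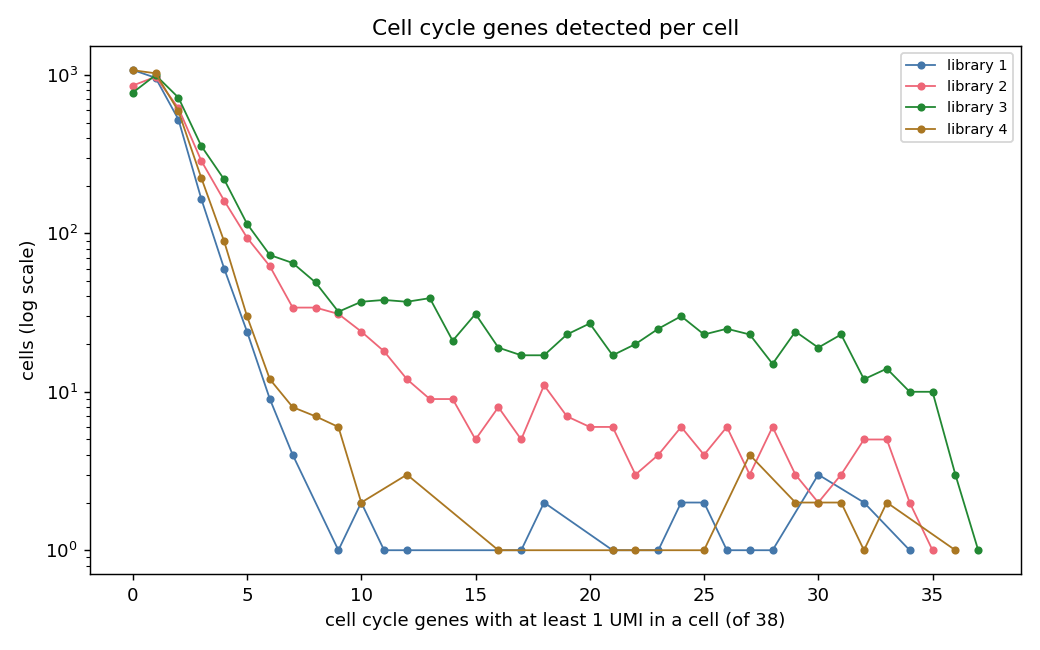
Number of different cell cycle members detected in a cell (horizontal axis) against the number of cells on a log axis (vertical), with a line for each of the 4 libraries that passes over counts with no cell. All 4 fall steeply from the cells with no or 1 member, and library 3 keeps the most cells with 10 or more members (600, against 173 in library 2, 22 in library 1 and 23 in library 4).

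A count of 3 members depended strongly on depth. Cells with 3 or more members had a median of 10066, 16300, 10853 and 11675 UMIs in libraries 1 to 4, and cells with fewer had 5961, 7954, 7086 and 7728. When each cell was thinned to 3000 UMIs, which every called cell reached, the shares were 1.79%, 6.05%, 18.1% and 2.17%. The order of the libraries stayed the same, with library 3 highest and library 1 lowest.

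In libraries 1, 2 and 4 most cells picked by this rule were picked through replication genes without 3 mitosis members. Of the picked cells, 72.3%, 63.0%, 44.2% and 64.9% in libraries 1 to 4 had 3 or more replication members and fewer than 3 mitosis members. Both sets reached 3 members in 6.67%, 17%, 34.9% and 5.51% of these cells. The mitosis set alone reached it in 1.4%, 5.71%, 6.96% and 1.5%. Cells with mitosis genes therefore mostly carried replication genes too, while the reverse held in fewer cells. The share with 3 or more of the 24 mitosis members is used below as the narrower readout: 0.809% of library 1 (23 cells, interval 0.514 to 1.21), 5.99% of library 2 (199 cells, 5.21 to 6.85), 15.8% of library 3 (632 cells, 14.7 to 17) and 0.908% of library 4 (28 cells, 0.604 to 1.31).

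The replication members comprise the helicase subunits MCM2 to MCM7 with GINS2 and the helicase loader CDC6, the sliding clamp PCNA, the nucleotide-making enzymes RRM1, RRM2, TYMS and TK1, and UHRF1, which copies DNA methylation. PCNA was the most abundant of them, with 834, 1391, 3094 and 833 UMIs in libraries 1 to 4, and was detected in 21.9%, 26.1%, 30.8% and 19.2% of cells. At the other end were GINS2, with 15, 118, 224 and 22 UMIs, CDC6, with 6, 71, 348 and 21, and TK1, which salvages thymidine, with 59, 111, 373 and 79. PCNA was thus detected in the largest share of cells in library 3 and the smallest in library 4, and CDC6 was at 0.219 CPM in library 1 and 7.77 CPM in library 3.

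The mitosis members comprise the kinase CDK1 with its cyclins CCNA2, CCNB1 and CCNB2, the kinases PLK1, AURKA, AURKB, BUB1 and BUB1B, and BIRC5, a partner of AURKB. They also include CDC20 and UBE2C, which act in the destruction of cyclins, the kinesins KIF11, KIF20A, KIF23 and CENPE, and the spindle proteins TPX2, NUSAP1, PRC1, HMMR and ASPM. The chromosome proteins TOP2A, MKI67 and CENPF complete the list. CENPF, a kinetochore protein, was the most abundant member of all, with 258, 1414, 4981 and 529 UMIs in libraries 1 to 4, in 23, 166, 545 and 38 cells.

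TOP2A, which untangles DNA before chromosomes part, had 254, 1176, 4278 and 412 UMIs. MKI67, which coats mitotic chromosomes and is the usual mark of dividing cells, had 138, 903, 3134 and 264 UMIs, in 20, 180, 521 and 30 cells. UBE2C had 379, 878, 2436 and 341. These transcripts were thus abundant in few cells: MKI67 was found in 0.704% of the cells of library 1 and 13.0% of those of library 3. The scarcest of the set were KIF20A, a kinesin of cytokinesis, with 10, 97, 345 and 26 UMIs, and AURKB, with 44, 152, 460 and 36.

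The members' UMIs were concentrated to different degrees in the cells that held at least 10 of them. For the median mitosis member these cells held 87.8%, 89.6%, 95% and 83.0% of its UMIs in libraries 1 to 4, with ranges of 38.6 to 100%, 65.9 to 95.8%, 86.9 to 98.2% and 39.8 to 98.9%. For the median replication member the shares were 9.12%, 34.3%, 66.2% and 14.6%. The cells were chosen by the members themselves, so these shares are a description. RRM2, the regulated subunit of ribonucleotide reductase, stood with the mitosis set: 96.6%, 84.8%, 96.3% and 79.7% of its UMIs lay in such cells. UHRF1 (60.8%, 69.2%, 86.9% and 64.3%) and CDC6 (50%, 69%, 88.8% and 47.6%) also lay within or near the range of the mitosis members. PCNA, at 9.11%, 34.9%, 69% and 11%, was typical of the replication set. Among mitosis members the lowest shares were those of PLK1 in libraries 1 to 3 (38.6%, 65.9% and 86.9%) and of CCNB2 in library 4 (39.8%).

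**Figure D2:**
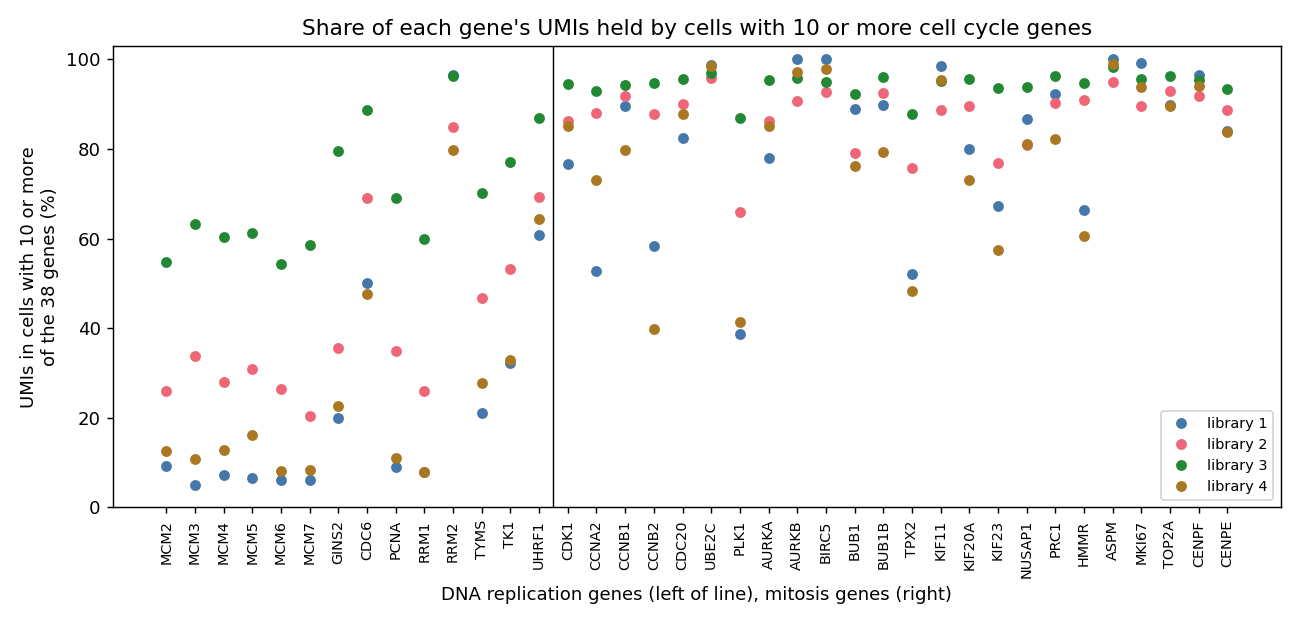
Percent of each member's UMIs that lay in cells with 10 or more members (vertical axis), with a point per library in its own colour, replication genes left of the line and mitosis genes right of it. Mitosis members sit high in all 4 libraries (medians 87.8, 89.6, 95 and 83.0%), and most replication members lower (medians 9.12, 34.3, 66.2 and 14.6%), with RRM2, UHRF1 and CDC6 the highest of them.

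Which cells held mitosis genes differed by library. Of the cells with 3 or more mitosis members, 22 of 23 in library 1 and 22 of 28 in library 4 were immune-like. In library 2, 151 of 199 were acinar-like, and in library 3, 339 of 632 were acinar-like and 127 were endocrine-like. The shares of each class are given next, with the 95% interval, and where none was found, with the share that a count of 0 still allows.

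In acinar-like cells the share was 12.0% in library 2 (151 of 1260, 10.2 to 13.9) and 42.0% in library 3 (339 of 807, 38.6 to 45.5). None of 423 cells in library 1 and none of 72 in library 4 had 3 mitosis members, which allows up to 0.709% and 4.17%. These cells were deep in libraries 2 and 3, with medians of 19227 and 17323 UMIs, against 7330 in library 1 and 10786 in library 4. Thinned to 3000 UMIs, the shares were 4.37% and 21.6% in libraries 2 and 3, still with none in libraries 1 and 4. A cluster with MKI67 among its leading genes held 65 and 203 of these cells, and without that cluster the shares were 7.20% and 23.2%.

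In endocrine-like cells the share was 0 of 682 in library 1 (up to 0.440% allowed), 3.67% in library 2 (26 of 709, 2.41 to 5.33), 12.5% in library 3 (127 of 1015, 10.5 to 14.7) and 0.612% in library 4 (4 of 654, 0.167 to 1.56). Depth ran the other way here, with medians of 14984 and 16930 UMIs in libraries 1 and 4 and 8565 and 8679 in libraries 2 and 3. A single cluster led by PRC1, CKAP2 and UBE2C held 17 of the 26, 98 of the 127 and 3 of the 4 cells. All 118 cells of that cluster had 3 or more mitosis members. Members and listed cell cycle genes were left out of the clustering, but other genes that go with the cycle were not. KIAA0101, which is on no list, was among the leading genes of that cluster. Without that cluster the shares were 1.30%, 3.16% and 0.154% in libraries 2 to 4.

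Stellate-like cells, the collagen-making cells of the stroma, had the lowest share of the named classes in libraries 2 and 3, and none in libraries 1 and 4, where acinar-like cells also had none: 0 of 1239 in library 1 (up to 0.242% allowed), 0.309% in library 2 (3 of 970), 2.31% in library 3 (39 of 1686, 1.65 to 3.15) and 0 of 974 in library 4 (up to 0.308% allowed). Ductal-like cells had 1 of 58, 8 of 127 (6.30%), 45 of 201 (22.4%, 16.8 to 28.8) and 1 of 11 cells in libraries 1 to 4. Endothelial-like cells had 0 of 136, 3 of 104, 13 of 45 (28.9%, 16.4 to 44.3) and 1 of 60. Mesothelial-like cells had 9 of 33 (27.3%) in library 3 and 0 of 102 in library 4. In every one of these classes the highest share was that of library 3.

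Immune-like cells with 3 or more mitosis members were found in all 4 libraries, as ductal-like cells were: 8.18% of 269 cells in library 1 (5.2 to 12.1), 2 of 33 in library 2, 33.3% of 99 in library 3 (24.2 to 43.5) and 2.71% of 813 in library 4 (1.70 to 4.07). Thinned to 3000 UMIs, the shares were 6.69%, 0%, 25.3% and 1.72%, the 0 from those 33 cells. In library 1 they lay in B/plasma-like cells (10 of 49), T/NK-like cells (9 of 67) and macrophage-like cells (3 of 119). In library 3 they lay mostly in macrophage-like cells (24 of 58, 41.4%), and in library 4 also (17 of 195, 8.72%, 5.16 to 13.6). A further cluster was led by FCN1, S100A8 and S100A9 and raised in both macrophage and neutrophil markers. It had 3 of 23 cells in library 3 (13%, 2.78 to 33.6) and 0 of 34 in library 1. In library 4 it had 0 of 408 cells at a median of 8226 UMIs. The macrophage-like cells of library 4 had a median of 7221 UMIs, so a cluster of similar depth showed no such cell in that library, and up to 0.735% is still allowed.

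**Figure D3:**
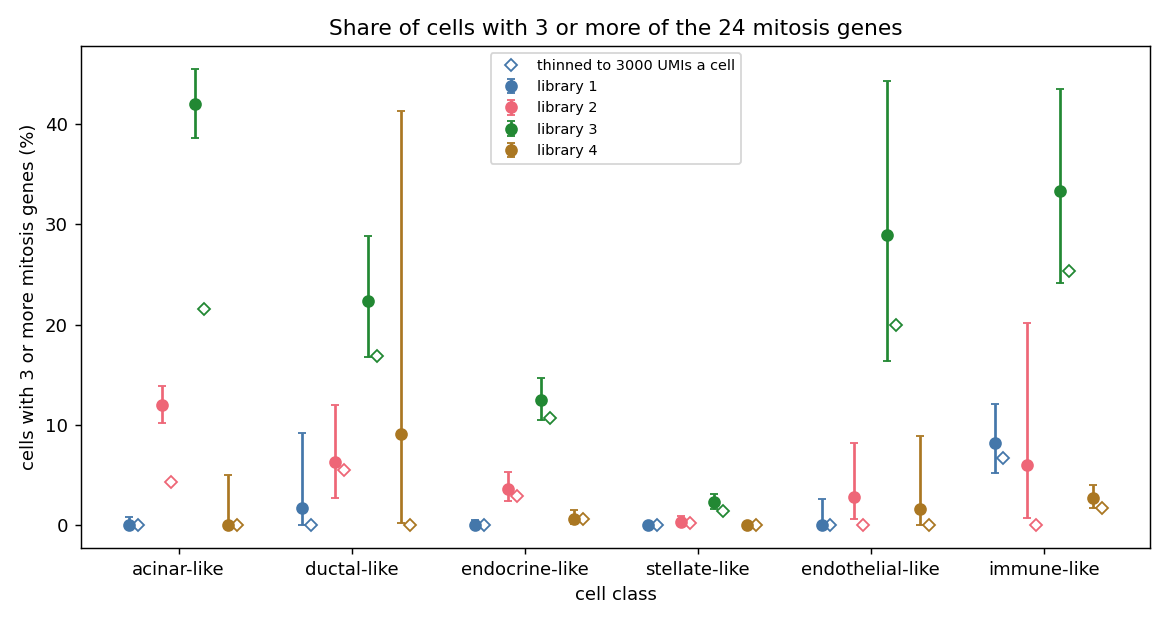
Percent of cells with 3 or more of the 24 mitosis members (vertical axis, percent) by cell class and library, as filled points with exact binomial 95% intervals, and as open diamonds after thinning each cell to 3000 UMIs. Acinar-like cells reach 42.0% in library 3 and 12.0% in library 2 with none in libraries 1 and 4, and immune-like cells before thinning are above 0 in all 4 libraries.

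Each class was next set against all other cells of the same library. A gene was called higher or lower where log2(CPM + 1) of the summed counts differed by at least 1 in the same direction in every library with at least 20 cells on each side, with at least 20 counts in the higher side each time. This is a rule of size and not a test. GINS2, CDC6 and KIF20A did not reach the count minimum in any class. All other 35 members were measured in 5 of the 6 classes compared, and 15 of them in the immune-like class. The share of all genes called is given beside each main count, because the members' count can only be read against it. That share was not computed with a library left out or with another pseudocount. Members' counts under those settings are a description only, since leaving out a library loosens the rule for every gene.

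Stellate-like cells held lower levels of mitosis genes than all other cells pooled in all 4 libraries. Of 35 measured members, 16 were called lower and none higher, while 10.6% of all genes were called lower and 10.2% higher. The 16 were 15 of 23 mitosis members and, of 12 replication members, UHRF1. The median over the members was -1.47, against 0.31 over all genes measured. With the pseudocount raised from 1 to 10 CPM only 1 member was called lower. Centred on the median of all genes, 20 were, where 13.4% of all genes were.

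CENPF stood at 0.151, 5.26, 24.5 and 0.742 CPM in stellate-like cells of libraries 1 to 4, with log2 ratios to the other cells of -3.53, -2.43, -2.51 and -3.68. UBE2C stood at 0.302, 6.96, 10.4 and 0.124 CPM, with ratios of -3.87, -1.38, -2.65 and -3.72. MKI67 had no UMI in libraries 1 and 4 and stood at 3.41 and 12.4 CPM in libraries 2 and 3. Its ratios were -2.93, -2.31, -2.79 and -3.56, where those against 0 depend on the pseudocount. These 3 genes were the lowest of the class by median.

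BIRC5 had ratios of -2.50, -2.38, -2.58 and -2.51, and TOP2A had -2.76, -1.07, -2.19 and -3.44. CCNB2 had -2.23, -1.92, -2.84 and -2.62, and NUSAP1, which bundles spindle microtubules, had -2.43, -1.34, -2.36 and -2.86. CENPE, a kinesin at the kinetochore, had -1.98, -1.97, -2.37 and -2.96. PRC1, which bundles the central spindle, had -1.81, -1.64, -2.53 and -2.08, and KIF11, which separates the spindle poles, had -1.82, -1.29, -1.93 and -2.44. The other 6 called lower were CDC20, ASPM, BUB1B, CCNB1, AURKB and UHRF1, all with a median between -1.41 and -1.84. Replication members were mixed. UHRF1, the 1 called, had ratios of -1.18, -1.45, -2.26 and -1.38, and RRM2, called lower when centred, had -1.26, -0.93, -1.49 and -1.58. MCM7 had ratios of 0.88, 0.61, -0.46 and 0.96, and PCNA had 0.25, -0.16, -0.95 and -0.37. Of all 14 replication members, 5, 9, 14 and 7 were below 0 in libraries 1 to 4. The median over the 12 measured was 0.03 and over the 23 measured mitosis members -1.84.

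**Figure D4:**
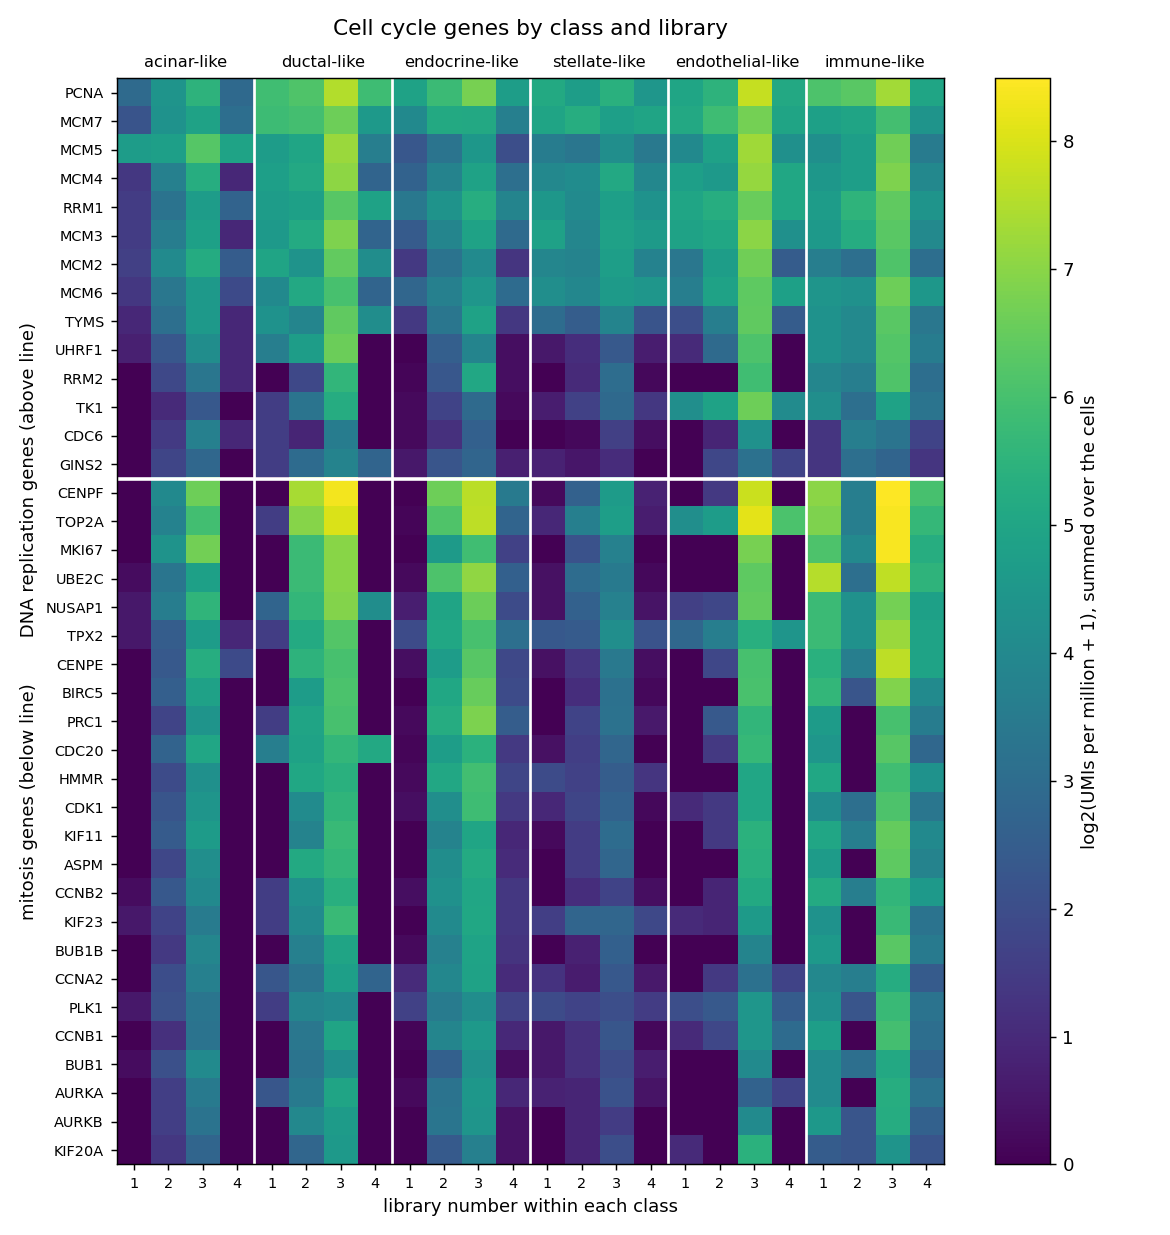
Level of each member as log2(CPM + 1) of the counts summed over the cells (colour scale), with members in rows, replication genes above the white line and mitosis genes below it, and libraries 1 to 4 in columns within each class. Mitosis members are dark in most rows of the acinar-like and stellate-like columns of libraries 1 and 4. The endocrine-like column of library 1 is dark in most mitosis rows too. Mitosis members are bright in the library 3 columns of the ductal-like and immune-like classes (CENPF at 324.0 and 359.1 CPM).

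In acinar-like cells no member was called higher and 3 were called lower, TK1, UBE2C and PRC1, while 0.504% of all genes were called higher and 50.6% lower. The median over all genes was itself -1.56 in this class, so the shift of the scale exceeded that of most members. TK1 had ratios of -1.83, -1.38, -1.23 and -1.81, UBE2C had -3.82, -1.76, -1.36 and -3.56, and PRC1 had -1.70, -2.49, -1.37 and -2.40. Centred on the median of all genes, none was called lower and MCM5 was called higher, and 2.01% and 4.85% of all genes were called higher and lower. Without library 3, 18 members were called lower. Of 24 mitosis members, 24, 23, 20 and 24 had uncentred ratios below 0 in libraries 1 to 4. In library 3, however, 42.0% of acinar-like cells held 3 or more mitosis members, against 15.8% of all cells. The ratio of summed counts and the share of cells thus differed in direction there.

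MCM5 was the member most raised in acinar-like cells, at 24.9, 26.9, 75.3 and 29.3 CPM in libraries 1 to 4, with uncentred ratios of 1.48, 0.92, 0.99 and 1.95. No other subunit of its ring of 6 was called higher, centred or not. MCM2 came nearest, with uncentred ratios of -1.42, 0.17, 0.22 and -0.37. Its centred median was 1.44, against 2.81 for MCM5. MCM3 stood at 1.83, 11, 27.2 and 0.915 CPM, and MCM4 at 1.60, 12.0, 38.6 and 0.915 CPM. MCM5 was also found in acinar-like cells with no mitosis member at all: in 79 of 367 (21.5%) in library 1 and 19 of 63 (30.2%) in library 4, in the cluster led by PNLIP, and in 214 of 727 (29.4%) in library 2 and 114 of 214 (53.3%) in library 3, in the largest cluster of each. In beta-like cells with no mitosis member it was in 18 of 237 (7.59%) and 14 of 417 (3.36%) in libraries 1 and 4, at median depths of 12238 and 17062 against 7606 and 10889 UMIs in those acinar-like cells. In libraries 2 and 3 it was in 11 of 231 and 14 of 294 beta-like cells (4.76% each), which were shallower (6999 and 7772 against 16839 and 17069 UMIs). Ductal-like cells held MCM5 at 24.7, 30.8, 145.9 and 11.4 CPM in libraries 1 to 4, so it was not particular to acinar-like cells. Ductal-like cells with no mitosis member held it in 5 of 42 (11.9%), 8 of 84 (9.52%) and 39 of 94 (41.5%) in libraries 1 to 3. These were counted in the largest ductal-like cluster of each library, at medians of 6069, 7385 and 5452 UMIs. Barcodes of 10 to 100 UMIs held MCM5 at 16, 19.3, 55.6 and 5.74 CPM, against 10.9, 21.9, 51.9 and 7.57 CPM over all cells, and the part of free RNA was not tested. MKI67 had acinar-like ratios of -2.80, 0.30, 1.00 and -3.23. Its UMIs there were 0, 603, 1742 and 0.

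In endocrine-like cells no member was called higher and 1 was called lower, MCM5, while 8.78% of all genes were called higher and 9.46% lower. MCM5 stood at 3.90, 8.62, 21.3 and 3.14 CPM, with ratios of -1.86, -1.39, -1.47 and -1.44. MCM2 was called lower too when centred, with uncentred ratios of -2.08, -0.86, -1.21 and -1.99. The mitosis members had no common direction: 24 of 24 were below 0 in library 1 and 23 in library 4, while 24 were above 0 in library 2 and 23 in library 3. Their median ratios were -2.12, 1.99, 1.26 and -0.95 in libraries 1 to 4. These ratios compare summed counts and do not give the share of cells with mitosis genes. In library 2, 3 or more mitosis members were held by 3.67% of endocrine-like cells and 5.99% of all cells. In library 3 these shares were 12.5% and 15.8%. Thinned, they were 2.96% and 2.68% in library 2, and 10.7% and 9.93% in library 3. How far a few cells carried the summed counts was not tested.

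In ductal-like cells 1 member was called higher, MCM7, and none lower, while 7.33% of all genes were called higher and 4.03% lower, over libraries 1 to 3. MCM7 stood at 55.1, 61.5 and 96.7 CPM, with ratios of 1.51, 1.22 and 1.57, and was not called when centred on the median of all genes, which was 0.67. Without library 1, which has 58 ductal-like cells, 14 members were called higher. In that library 19 of 24 mitosis members were below 0, with UBE2C, CENPF and MKI67 at no UMI, whereas all 24 were above 0 in libraries 2 and 3. CENPF reached 164.0 and 324.0 CPM in these cells of libraries 2 and 3.

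In endothelial-like cells no member was called in either direction, while 4.79% of all genes were called higher and 6.17% lower. TK1 stood at 17.5, 28.8, 98 and 16 CPM, with ratios of 2.84, 3.53, 3.53 and 2.39 that did not meet the count minimum in every library (17, 35, 37 and 7 UMIs). TOP2A stood at 17.5, 24.7, 280.7 and 66.4 CPM, with ratios of 0.90, 0.05, 1.57 and 2.38. Without library 3, 14 members were called lower, and without library 4, 2 were called higher and 1 lower.

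In immune-like cells no member was called in either direction among the 15 measured, while 4.27% of all genes were called higher and 11.4% lower. Library 2, with 33 such cells, set this result: without it 25 members were called higher, with no share of all genes computed for that setting. UBE2C stood at 186.4, 7.52, 205.8 and 45.2 CPM in libraries 1 to 4, from 374, 2, 145 and 278 UMIs, and MKI67 at 68.8, 15.0, 339.2 and 38.5 CPM. All 24 mitosis members were above 0 in libraries 1, 3 and 4, with medians of 4.50, 1.70 and 2.54, and 10 of 24 in library 2. Without library 4, 1 member was called higher.

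Other genes of the pathway were read from 4 lists by the same rule. Of 53 measured other mitosis genes, 13 were called lower in stellate-like cells and none higher, where 10.6% and 10.2% of all genes were. They included STMN1, which destabilises microtubules (-5.57, -2.43, -3.07 and -5.28), the RhoGAP ARHGAP11A, the centromeric histone CENPA, CDCA3, and SPC24 of the kinetochore. CDKN1C, an inhibitor of cyclin-dependent kinases, was the only one of 14 measured brakes called in that class, and it was higher (4.43, 4.02, 4.62 and 3.75). Of 35 other replication genes, LIG1, the ligase that joins Okazaki fragments, was called lower, and of 10 genes of the G1 to S step none was called.

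In ductal-like cells CDKN1C was called lower (-1.97, -1.20 and -3.17), the only one of 14 brakes to be so, with GADD45A among those called higher, where 4.03% of all genes were called lower and 7.33% higher. The G1 kinase CDK6 (1.63, 3.62 and 3.27) and cyclin CCND1 (2.26, 2.40 and 2.58) were called higher, 2 of 11 measured genes of the G1 to S step. Of 37 other replication genes 4 were called higher: the licensing inhibitor GMNN (2.66, 4.04 and 3.86), the histone chaperone NASP, the histone mRNA binder SLBP, and RPA2, which coats single-stranded DNA. Of 55 other mitosis genes CKS1B, TUBB4B and TMPO were called higher. CDK6, CCND1, GMNN and NASP kept the call when centred.

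In endocrine-like cells 2 pathway genes were called: STMN1, higher (2.07, 3.62, 2.74 and 1.63), of 55 measured other mitosis genes, and MYC, a transcription factor of growth, lower (-3.32, -2.43, -3.20 and -4.31), of 10 of the G1 to S step. None of 34 other replication genes and none of 14 brakes was called, where 8.78% of all genes were called higher and 9.46% lower. In immune-like cells CCND3, a cyclin D of lymphocytes, was called higher (1.74, 2.19, 1.99 and 2.01), and so were 3 of 13 brakes, CDKN1A (2.42, 2.89, 3.36 and 3.92), BTG1 and BTG2, and 2 of 31 other mitosis genes, LMNB1 and HMGB2, where 4.27% of all genes were. In endothelial-like cells DSCC1, which takes part in sister chromatid cohesion, (1.78, 1.76, 1.49 and 1.97), SMC4 and HMGB2 were called higher, and GADD45A and CENPA lower, where 4.79% and 6.17% of all genes were. In acinar-like cells 5 of 10 genes of the G1 to S step, 9 of 14 brakes, 5 of 37 replication genes and 6 of 54 mitosis genes were called lower, where 50.6% of all genes were. STMN1 alone of them kept the call when centred.

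Within a class, cells with 3 or more members were set against the rest of the class in each library, over the genes that are not members. In endocrine-like cells (99, 106, 247 and 113 cells with 3 or more) no other gene was called, and 0.0298% of all genes, which were the 3 members MCM3, MCM4 and MCM5, were called higher and 0% lower. In stellate-like cells (83, 102, 382 and 123 cells) no other gene was called either, and the 0.0725% of genes called higher were the 7 members MCM2, MCM3, MCM4, MCM6, MCM7, PCNA and RRM1, with 0% lower. Those members chose the cells, and 8 members were measured in each class. Without library 1, 11 other genes were called higher in the endocrine-like class, and without library 3, 1 was called lower in the stellate-like class.

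With every cell thinned to 3000 UMIs, which left libraries 2 and 3 with 20 cells on each side, 105 genes were called higher and 165 lower in endocrine-like cells, and 4 higher and 201 lower in stellate-like cells. The picked cells of library 2 were then 34 endocrine-like and 22 stellate-like. At so few UMIs a gene can be called lower by having none in the picked cells. That part was not tested, and no share of all genes was computed. Unthinned, the cells picked by 3 members thus carried no other gene past the rule in all 4 libraries. The median ratio of the other mitosis genes was 1.32 over 15 measured in endocrine-like cells and 0.61 over 16 in stellate-like cells.

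The comparison was repeated with cells picked by 3 or more mitosis members, in the acinar-like and endocrine-like cells of libraries 2 and 3, a choice made after the data were seen. In acinar-like cells, 151 cells of library 2 and 339 of library 3 were set against 1109 and 468. Outside the members 229 genes were called higher and none lower, and with members 2.75% of all genes were called higher and 0% lower. The picked cells were deeper, with medians of 24397 against 18487 UMIs in library 2 and 20371 against 16163 in library 3. The part of depth in these calls was not tested beyond thinning to 3000 UMIs, which left 23 genes higher and 18 lower. With a pseudocount of 10 CPM 70 were called higher.

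All 58 measured genes of the other mitosis list were higher in these acinar-like cells, with a median log2 ratio of 2.76, against 0.19 over all genes. CDCA3, which triggers mitotic entry, stood at 23.0 against 0.195 CPM in library 2 and 32.8 against 0.671 CPM in library 3. CKAP2, a spindle protein, stood at 25.3 against 1.09 and 87.8 against 2.35 CPM. Also among the highest were CENPA, the CDK1 partner CKS2, DLGAP5, CDKN3, KIF4A, ARHGAP11A, KIAA0101, NEK2, PTTG1, SPC24, KIFC1 and KNSTRN. These genes had no part in picking the cells. However, a gene counted as measured with at least 20 counts on either side in each library. A gene scarce in the rest thus entered only through the picked cells, where it was high. The 58 of 58 is therefore partly set by that rule, and the full list had 65 genes.

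Replication and G1 genes had smaller ratios. Of 37 other replication genes 19 were higher, with a median of 1.13, among them CDC45 of the replicative helicase (10.9 against 1.25 CPM in library 2 and 18.0 against 3.24 CPM in library 3), CLSPN, ATAD2 and CDT1. The repressor E2F8, the retinoblastoma relative RBL1 and cyclin CCNE2 were higher, 3 of 13 genes of the G1 to S step. CDKN2C and CDKN3 were higher, 2 of 12 brakes. Of the members themselves, which describe the choice of cells, all 24 mitosis members had a median ratio of 3.96 and the 14 replication members 1.45.

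No acinar marker passed the rule in these cells. None of 16 measured was called, with a median ratio of 0.06 over the list, and none of 12 ductal or 10 endocrine markers was called.

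In endocrine-like cells, 26 cells of library 2 and 127 of library 3 were set against 683 and 888. Outside the members 406 genes were called higher and 202 lower, and with members 3.98% of all genes were called higher and 1.83% lower. The picked cells were deeper, with medians of 11102 against 8413 UMIs and 13175 against 8326 UMIs. Thinned, 105 genes were higher and 345 lower, with 21 picked cells in library 2, so a gene can be called lower there by having no UMI. With a pseudocount of 10 CPM 36 were called lower, and centred on the median of all genes 322.

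Of 56 measured other mitosis genes 54 were higher, with a median ratio of 5.97 against 0.15 over all genes. Here too a gene scarce in the rest was measured only through the picked cells, and the full list had 65 genes. CKAP2 stood at 1666 against 2.66 CPM in library 2 and 959.6 against 4.08 CPM in library 3. CDCA3 stood at 477.9 against 0.148 and 222.4 against 0.932 CPM, and CKS2 at 1038 against 2.81 and 633.1 against 6.64 CPM. Of 24 other replication genes 12 were higher, with a median of 2.33. The CPM of CKAP2 and CDCA3 in the picked cells was higher here than in the picked acinar-like cells of the same library, a difference that was not tested.

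Of 10 genes of the G1 to S step, CDK4, the kinase of the D cyclins, was higher (144.0 against 55.5 CPM and 140.4 against 39.4 CPM), as was RBL1. CCND2, a cyclin D used by beta cells, was lower (49.1 against 144.9 CPM and 44.0 against 106.8 CPM). Of 14 brakes 4 were higher: CDKN2C (546.7 against 13.0 CPM and 262.1 against 7.34 CPM), CDKN2D, CDKN3 and CCNG2. Both an inhibitor and its kinase were thus at higher levels in the same cells.

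Beta-cell markers were lower in the endocrine-like cells with mitosis genes. Of 8 measured, 4 were called lower and none higher, with a median of -1.73. INS, insulin, stood at 49801 against 143797 CPM in library 2 and 57532 against 185308 CPM in library 3. SLC2A2, the glucose transporter, stood at 29.5 against 147.4 and 13.8 against 93.4 CPM. UCN3, a late marker of beta cells, stood at 9.82 against 48.1 and 8.26 against 28.4 CPM, and G6PC2 at 6.55 against 23.3 and 10.5 against 44.7 CPM. In the 26 picked cells of library 2, 9.82 CPM is 3 UMIs, so the values of UCN3 and G6PC2 there rest on 3 UMIs or fewer. None of 5 alpha, 4 delta and 2 pancreatic polypeptide markers was called, and none of 17 general endocrine markers. CHGA, a granule protein of all these cells, stood at 8259 against 6472 and 4899 against 4584 CPM.

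The make-up of the cells moved with the beta markers. By the hormone with the most UMIs, INS led in 8 of 26 cells with mitosis genes in library 2 (30.8%, 14.3 to 51.8) against 60.6% of the rest, and in 30 of 127 in library 3 (23.6%, 16.5 to 32.0) against 49.3%. GCG, glucagon, led in 30.8% against 11.4% and in 24.4% against 10.6%. PPY, pancreatic polypeptide, led in 26.9% against 23.4% and in 45.7% against 31.9% (36.8 to 54.7 against 28.8 to 35.0). Fewer beta-like cells among those with mitosis genes and less insulin transcript per beta-like cell were not told apart here.

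The other genes lowest in these cells were WFDC1, CP, GDPD2, HAPLN4, KCNA4, TEX26, IRS4, TBC1D9, TCERG1L and PTGDR2. In library 2, 9 of these 10 had no UMI in the 26 cells, where 3 UMIs would be 9.82 CPM. The rest of the class lay above that level for 8 of the 9. WFDC1 had no UMI in the picked cells of either library, against 39 and 26.6 CPM in the rest. In library 3, where 3 UMIs would be 1.65 CPM, 3 of the 10 had none.

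**Figure D5:**
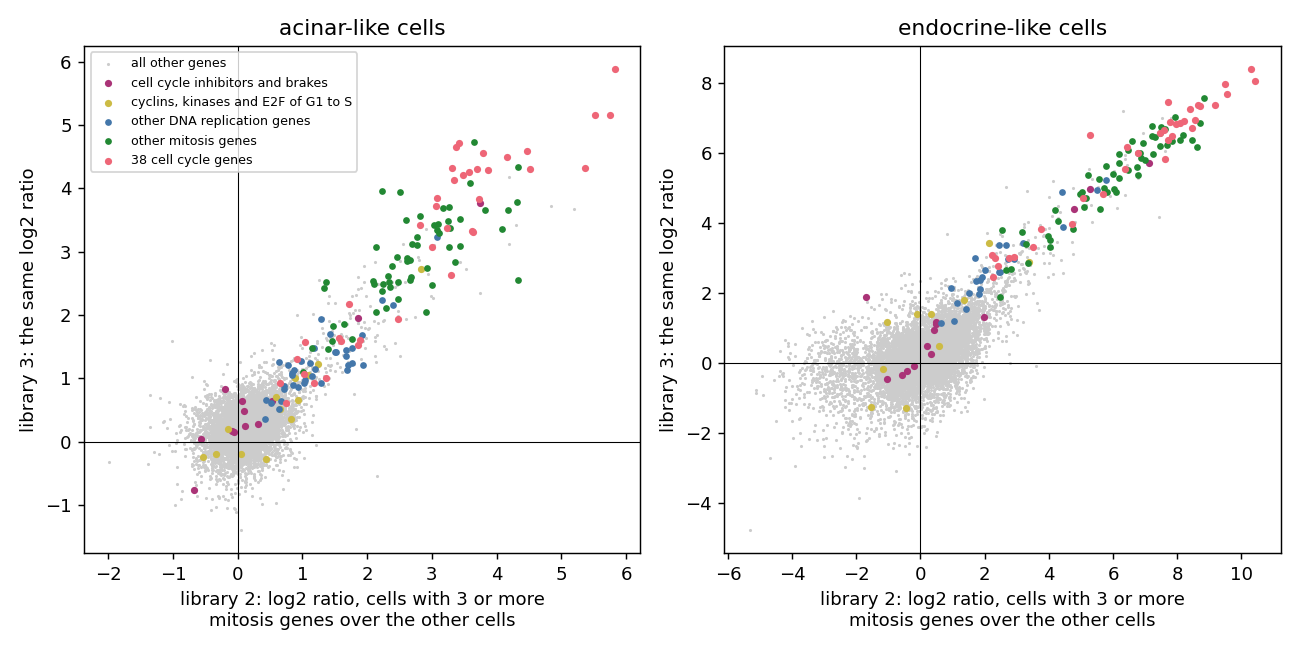
Log2 ratio of each gene in cells with 3 or more mitosis members over the rest of the class, library 2 (horizontal axis) against library 3 (vertical), for acinar-like and endocrine-like cells, with the members, the 4 pathway lists and all other genes in colours of their own. Other mitosis genes lie at the upper right in both panels (medians 2.76 and 5.97), with CDCA3 and CKAP2 among the highest in each.

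A few members also appeared in cells that held no other mitosis member. CCNB2 was found in 12 of 101 such macrophage-like cells in library 1 (11.9%, 6.29 to 19.8) and 28 of 139 in library 4 (20.1%, 13.8 to 27.8), and in 24 of 353 in the FCN1-led cluster of library 4. In library 4 it was in 3 of 49 B/plasma-like cells (6.12%), 0 of 104 T/NK-like cells and 1 of 418 beta-like cells, the last at a median of 17182 against 6589 UMIs in the macrophage-like cells. HMMR, a hyaluronan-binding spindle protein, was found in 23 of 352 such FCN1-led cells of library 4 (6.53%, 4.19 to 9.64), in 3 of 49 B/plasma-like (6.12%), 2 of 113 macrophage-like and 2 of 419 beta-like cells. Barcodes of 10 to 100 UMIs of that library held CCNB2 at 2.3 CPM and HMMR at 4.59 CPM, against 5.09 and 4.97 CPM over all cells. The part of free RNA in these counts was not tested.

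TPX2, which activates AURKA, was found in 22 of 259 (8.49%, 5.4 to 12.6) such beta-like cells of library 1 and 47 of 464 (10.1%, 7.54 to 13.2) of library 4. In the PPY-led cluster it was in 5 of 270 (1.85%, 0.604 to 4.27) in library 1 and 5 of 73 (6.85%, 2.26 to 15.3) in library 4. In library 4 it was also in 7 of 53 B/plasma-like (13.2%), 11 of 115 T/NK-like (9.57%) and 6 of 42 CCL21-led endothelial-like cells (14.3%), so beta-like cells did not stand apart there. These cells had medians of 5297, 4705 and 5250 UMIs, against 17778 in the beta-like cells, so the shares were not at like depth. TOP2A was found in 7 of 85 (8.24%) endothelial-like cells of library 1 in the cluster led by CCL21 and MMRN1, and in 7 of 43 (16.3%) in library 4. In the cluster led by PLVAP it was in 0 of 39 in library 1 (0 to 9.03) and 1 of 48 in library 2 (2.08%, 0.0527 to 11.1). That interval of library 1 holds the 8.24% of the CCL21-led cluster, so these clusters were not told apart there. These members, with MCM5 in acinar-like cells, were picked out after the values were seen.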

How the data were processed

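The authors deposited 1 unfiltered matrix of whole UMI counts from Cell Ranger 5.0.1, per the file headers. Seurat 3.1.1 and an earlier Cell Ranger, 3.1.0, stand in the submitters' processing notes. The build, the annotation and whether aggregation equalised depth were not given in the sources used here. Library totals were 43297855, 82817057, 65937591 and 55223412 UMIs. Barcodes above 1/10 of the 99th percentile of the top 8000, with at least 500 genes, were called cells. Scrublet (scanpy 1.11.5) removed 48, 3, 109 and 3 cells, 18 of them with 3 or more mitosis members, and marked almost none in libraries 2 and 4. Leiden clustering (igraph 0.11.9, resolution 1, 2000 genes, 30 components, 15 neighbours) left the members and the listed cell cycle genes out and corrected no batch. A cluster was named by at least 3 raised markers of a list. Those thresholds were set after seeing the data. Counts were summed per class and library to CPM, with a pseudocount of 1. Called genes follow the size rule in the text. Only its form centred on the median of all genes was checked on simulated data, for a class against all other cells. The uncentred rule and the comparisons within a class were not simulated. No test was run. Members, lists and naming rules were chosen with earlier results of these data known. All called members with the 10 widest median ratios per class, the 5 most and 5 least abundant members, the 15 highest and 10 lowest other genes and the 5 widest of each pathway list are named; symbols starting with LOC are left out, and a few genes that meet the rule are not reported here. Of 27137 gene IDs, 27103 matched RefSeq assembly ARS1.2, and all 38 members did. Alternatives covered cell calling, doublets, clustering, scaling, pseudocount, count minimum, thinning and each library left out.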

Additional observations from a re-analysis of the deposited data

Results flagged for a closer look

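Barcodes of at least 1000 UMIs that fell below the cell threshold of their library were not used above, and some held 3 or more mitosis members. The thresholds were 3417, 5525, 4190 and 3403 UMIs in libraries 1 to 4. In library 2 such barcodes were 0.698% (47 of 6736), where a count of 0 would allow 0.0445%. In library 3 they were 7.04% (122 of 1733), where a count of 0 would allow 0.173%. In library 4 they were 0.31% (10 of 3226), where a count of 0 would allow 0.093%. Library 1 had 1 of 1731 (0.0578%), where a count of 0 would allow 0.173%. The share that a count of 0 allows depends only on the number of barcodes, and is no measure of free RNA. Median depths were 2276, 2950, 2764 and 1616 UMIs. The part of free RNA in these counts was not tested.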

How the results depend on the processing

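No paired analysis was possible because the replicate numbers of the labels could not be tied to the numbered libraries. The share of cells with 3 or more members (10.0%, 26.4%, 37.7% and 12.9% in libraries 1 to 4) was 1.79%, 6.05%, 18.1% and 2.17% thinned to 3000 UMIs, 6.81%, 10.5%, 30.9% and 6.78% with cells of at least 1000 UMIs, 7.92%, 21.1%, 29.9% and 9.11% with the 14 replication members, and 0.809%, 5.99%, 15.8% and 0.908% with the 24 mitosis members. It was 2.11%, 12.9%, 23.4% and 2.79% for at least 5 members, 0.774%, 5.21%, 15.0% and 0.746% for 10, and 0.528%, 1.96%, 8.03% and 0.551% for 20, the last 2 added later. Library 3 was the highest in each. Members called higher in acinar-like cells (0) were 1 with cells of at least 1000 UMIs, with the top 5% of doublet scores removed, with cell cycle genes kept in clustering and when centred on the median of all genes. Those called lower (3) were 1 with at least 1000 UMIs, with those doublets removed and with a pseudocount of 10 CPM, and 0 centred. Higher in ductal-like cells (1) were 0 with at least 1000 UMIs, a pseudocount of 10 CPM or centring, and 2 with those doublets removed or a minimum of 10 counts. Lower in endocrine-like cells (1) were 0 with a pseudocount of 10 CPM and 2 centred. Lower in stellate-like cells (16) was 1 with a pseudocount of 10 CPM, and lower in endothelial-like cells (0) were 3 with those doublets removed. Leaving out each library gave 3 to 18 lower in acinar-like, 1 to 14 higher in ductal-like, 1 to 2 lower in endocrine-like, 16 to 20 lower in stellate-like, 0 to 2 higher and 0 to 14 lower in endothelial-like, and 0 to 25 higher in immune-like cells. Within classes, cells with 3 or more members had 0 to 11 other genes higher (endocrine-like) and 0 to 1 lower (stellate-like) when libraries were left out, against 0 in all. Thinned, they had 105 higher and 165 lower in endocrine-like and 4 higher and 201 lower in stellate-like cells. Picking endocrine-like cells by mitosis members gave 406 and 202, and stellate-like cells were not run for want of cells. In the added comparison, acinar-like cells had 70 higher with a pseudocount of 10 CPM, 3 lower centred, and 23 higher and 18 lower thinned. Endocrine-like cells had 36 lower with a pseudocount of 10 CPM, 322 lower centred, and 105 higher and 345 lower thinned. Leaving out library 2 or 3 was not run there, since only those 2 entered. The causes of these shifts were not tested. Of all values recomputed, 159 kept within the set limits and 69 did not.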
